A study of Homo sapiens with 12 samples.

Results

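The genes described here are 10 components of the transforming growth factor beta (TGFβ) pathway: the ligands TGFB1, TGFB2 and TGFB3, the receptors TGFBR1, TGFBR2 and TGFBR3, the intracellular mediators SMAD3 and SMAD7, and the latent TGFβ binding proteins LTBP1 and LTBP2. They were taken by gene symbol, and all 10 were found among the 58051 gene rows of each count file. Poly(A) RNA was sequenced from a pair of established human head and neck squamous cell carcinoma (HNSCC) lines, FaDu from a hypopharyngeal and Cal27 from a tongue tumour, each as parental cells, as an afatinib-resistant derivative (AfaR) and as an erlotinib-resistant derivative (ErlR). Erlotinib inhibits the kinase of the epidermal growth factor receptor (EGFR) and afatinib that of several ERBB family receptors, and resistance had been raised by stepwise increases of either drug, which was withdrawn before experiments. Each of the 6 groups held 2 libraries, called replicates 1 and 2. Every group carried the genotype label WT, no engineered allele, and the same batch label. Each drug gave 1 resistant derivative per line, so a difference from the parental cells describes that derivative. FaDu was grown in EMEM and Cal27 in DMEM, so line and medium cannot be told apart.

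TGFβ ligands are secreted in a latent form that LTBPs tether to fibrillin and other matrix proteins, and integrins or proteases set them free. Free ligand is presented by the co-receptor TGFBR3 (betaglycan), which matters most for the TGFβ2 isoform, and binds TGFBR2, which phosphorylates TGFBR1; TGFBR1 in turn phosphorylates SMAD2 and SMAD3, which enter the nucleus with SMAD4, while SMAD7 is induced by the pathway and blocks it at the receptor. In squamous epithelium the pathway is known for restraining growth, and in carcinoma cells also for driving epithelial–mesenchymal transition (EMT) and matrix production.

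Counts on genes summed to between 16334937 and 23399259 in a library, and synthetic ERCC spike-ins took 3.86% to 5.82% of all counts. The libraries of a pair differed by more than sampling noise. Levels are given as CPM, the read count scaled to library size with trimmed mean of M values (TMM) factors, or, to compare genes, as TPM, which also divides by exon length. A gene is said to have risen or fallen where edgeR's quasi-likelihood test gave a Benjamini-Hochberg adjusted p below 0.05 over all genes tested. Markers of squamous and other epithelia (8 genes, among them KRT5, TP63, EPCAM and CDH1) were present in every group, with summed levels of 3585 to 12200 CPM in 5 groups and 769 to 879 CPM in Cal27 AfaR. Summed CPM of 9 mesenchymal markers was 1623 to 1772 in Cal27 AfaR, 109 to 117 in Cal27 parental cells and 39.7 to 76.5 elsewhere, with the filament protein VIM at a mean of 1196 CPM in Cal27 AfaR against 22.4 CPM in its parental cells. Leukocyte markers summed to 2.92 to 6.13 CPM over 4 genes, CD3E being at 0 in 5 of the 6 groups, and the 3 endothelial markers summed to 2.49 to 37.4 CPM, most of it CDH5 in Cal27 parental and AfaR cells.

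All 10 TGFβ pathway genes rose in Cal27 AfaR against Cal27 parental cells, 9 of them by more than 2-fold (11.5% of all genes rose by that much), and their median log2 fold change was 1.90 (all 15269 genes tested: −9.47e-06). Upward calls made up 19.5% and downward calls 18.2% of all genes in that comparison. Without any 1 of the 4 libraries, from 7 to 9 of the 10 still passed. In this group 7 of the 8 squamous markers fell and 6 of the 7 mesenchymal markers tested rose, and their part in the values of the TGFβ genes was not tested. In bulk RNA such as this, a change in the mix of cell states and a change in RNA per cell cannot be told apart.

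In Cal27 ErlR 4 of the 10 rose (TGFB1, TGFBR2, SMAD7, LTBP2) and 2 fell (TGFB2, SMAD3), beside 12.3% of all genes called higher and 15.3% called lower, with a median log2 fold change of 0.60 (all genes −0.03). From 4 to 6 of the 6 calls remained in number without any 1 library. Here 4 of 7 mesenchymal markers and 4 of 8 squamous markers fell and 1 squamous marker rose, which was not tested as a source of these values.

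In FaDu AfaR 4 of the 10 rose (TGFB2, TGFBR1, TGFBR2, LTBP2) and 0 fell, beside 10.4% of all 15092 genes called higher and 7.49% called lower, with a median of 0.46 (all genes −0.000714). The number of calls fell when 1 library was left out: 0 of the 10 passed without FaDu parental replicate 1, 1 without FaDu parental replicate 2, 1 without FaDu AfaR replicate 2 and 3 without FaDu AfaR replicate 1. Summed mesenchymal markers were at 74.0 to 76.5 CPM in FaDu AfaR against 39.7 to 43.5 CPM in FaDu parental libraries, with 1 of 5 tested mesenchymal markers and 1 of 8 squamous markers called higher, and their part in these values was not tested. In FaDu ErlR edgeR called 0 of the 10, beside 2.58% of all genes higher and 1.6% lower, while 4 reached an unadjusted p under 0.05 and DESeq2's Wald test called 1, TGFB1. The FaDu ErlR count depends on the scaling: with ERCC spike-in totals in place of TMM the median of all genes moved from −0.00123 to 0.49 on the log2 scale and 5 of the 10 were called higher. The comparisons within a line share their parental libraries, so their values are set side by side below without a test of likeness. Each of the 10 rose in at least 1 resistant derivative, as did 34% of the 13995 genes tested in all 4 comparisons, and TGFB2 and SMAD3 fell in another, a pattern seen in 9.07% of those genes.

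**Figure D1:**
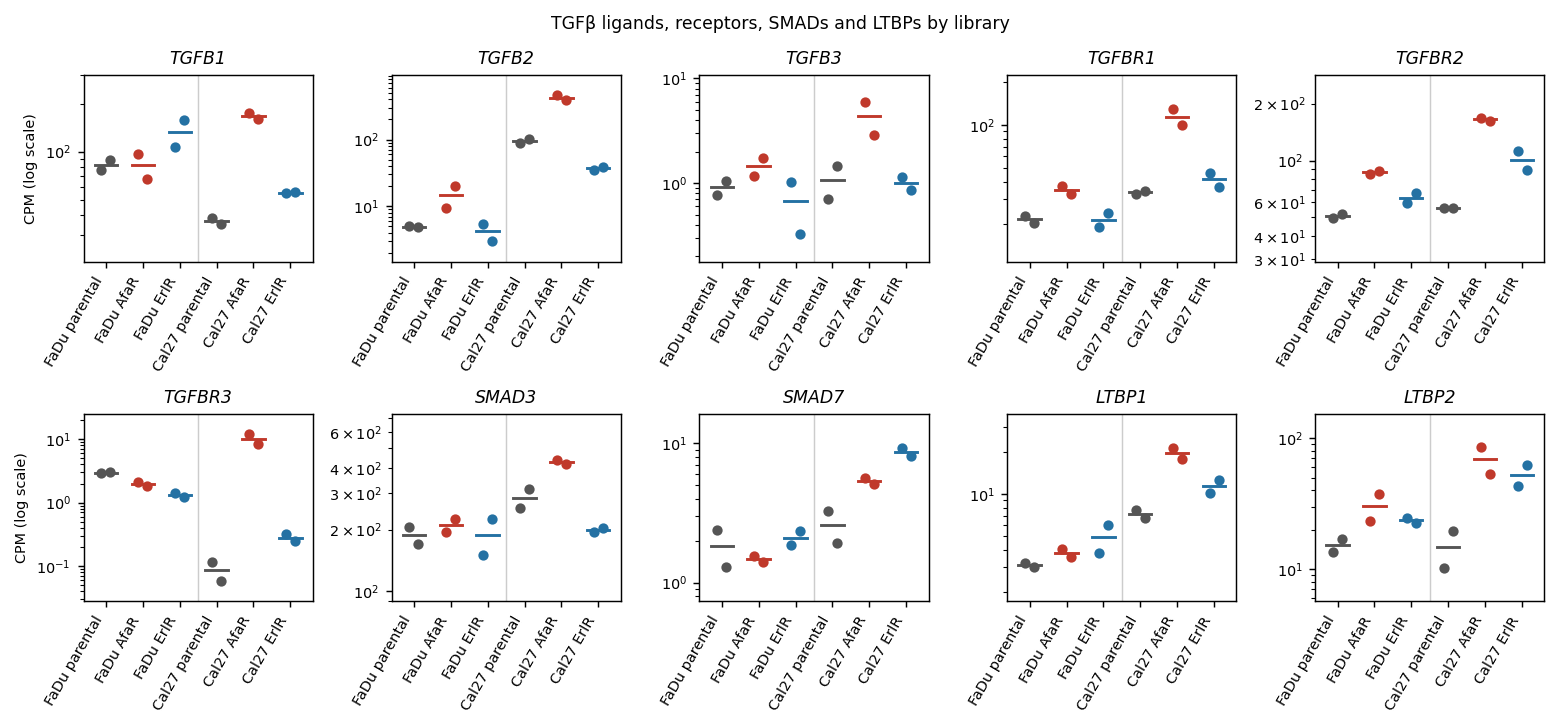
Level of each of the 10 genes in each of the 12 libraries, in CPM on a log scale, with a point per library and a line at the mean of each group of 2 (grey parental, red AfaR, blue ErlR; FaDu left and Cal27 right of the vertical line). The Cal27 AfaR points are the highest of all 6 groups for every gene but SMAD7, which was highest in Cal27 ErlR, and LTBP2, where 1 Cal27 ErlR library lay above 1 Cal27 AfaR library.

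Among the ligands, TGFB1 was the most abundant isoform in FaDu and TGFB2 in parental Cal27. TGFB1 (ENSG00000105329, chr19:41301587-41353911, minus strand, GRCh38), the isoform most widely made by epithelia, measured 77.0 and 88.3 CPM in the FaDu parental libraries, 96.7 and 67.7 CPM in those of AfaR and 106 and 158 CPM in those of ErlR cells. In Cal27 it measured 38.4 and 35.3 CPM in parental, 175 and 161 CPM in AfaR and 55.2 and 55.6 CPM in ErlR libraries. The Cal27 groups did not overlap, whereas FaDu AfaR spanned both FaDu parental values. TGFB1 rose by a log2 fold change of 2.19 (SE 0.129, adjusted p = 5.36e-06) in Cal27 AfaR and by 0.56 (SE 0.126, adjusted p = 0.0104) in Cal27 ErlR, the latter missing the threshold without Cal27 parental replicate 2 (0.52, adjusted p = 0.0885). In FaDu the change was −0.03 (95% interval −0.50 to 0.45, adjusted p = 0.943) in AfaR and 0.67 (0.19 to 1.14, adjusted p = 0.11) in ErlR, where both libraries lay above both parental ones; this value passed with DESeq2 (adjusted p = 0.0231), with ERCC scaling (1.13, adjusted p = 0.000864), without the filter on low counts (0.65, adjusted p = 0.000113) and without FaDu ErlR replicate 1 (0.92, adjusted p = 0.0488).

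TGFB2 (ENSG00000092969, chr1:218346235-218444619, plus strand), the isoform that depends on TGFBR3 for efficient binding, moved in opposite directions in the Cal27 derivatives. It measured 87.5 and 103 CPM in Cal27 parental, 458 and 389 CPM in Cal27 AfaR and 34.6 and 39.2 CPM in Cal27 ErlR libraries. It rose by 2.16 (SE 0.152, adjusted p = 1.24e-05) in Cal27 AfaR and fell by 1.39 on the log2 scale (SE 0.152, adjusted p = 0.000394) in Cal27 ErlR, and passed under every alternative run in both. In FaDu it measured 5.10 and 4.83 CPM in parental, 9.36 and 19.8 CPM in AfaR and 5.37 and 3.01 CPM in ErlR libraries. The FaDu AfaR libraries were above the parental ones and lay far from each other. The rise in FaDu AfaR (1.54, SE 0.371, adjusted p = 0.0244) missed the threshold without FaDu parental replicate 1 (1.57, adjusted p = 0.133), without FaDu parental replicate 2 (1.495, adjusted p = 0.101) and without FaDu AfaR replicate 2 (0.90, adjusted p = 0.161). In FaDu ErlR the difference was −0.26 (95% interval −1.14 to 0.63, adjusted p = 0.771).

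TGFB3 (ENSG00000119699, chr14:75958099-75982991, minus strand), the third isoform, stayed between 0.33 and 1.73 CPM in 10 libraries and reached 5.89 and 2.90 CPM in Cal27 AfaR. Its Cal27 parental libraries were at 0.70 and 1.46 CPM. The rise in Cal27 AfaR (2.02, SE 0.493, adjusted p = 0.0105) missed the threshold without Cal27 parental replicate 1 (1.59, adjusted p = 0.0555) or Cal27 AfaR replicate 1 (1.42, adjusted p = 0.117). In the other derivatives its differences were 0.66 in FaDu AfaR, −0.43 in FaDu ErlR and −0.13 in Cal27 ErlR, with adjusted p between 0.4 and 0.881.

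Per unit of transcript length, TGFB1 made up 95.7% ± 0.389 (SD, n = 2) of the summed ligand TPM in FaDu parental cells, 88.4% ± 7.28 in its AfaR and 97.5% ± 1.66 in its ErlR derivative. In Cal27 its share was 38.0% ± 4.14 in parental, 38.5% ± 1.40 in AfaR and 69.9% ± 1.58 in ErlR cells, and nearly all the rest was TGFB2, at 61.3% ± 3.82, 60.8% ± 1.15 and 29.2% ± 1.78. The Cal27 AfaR ligand pool was thus larger in sum (559 ± 92.5 against 117 ± 4.96 TPM) with shares that overlapped those of the parental cells, and the Cal27 ErlR pool (87.9 ± 4.47 TPM) was the only Cal27 pool with more TGFB1 than TGFB2. TGFB3 made up between 0.372% and 1.07% in the group means. With 2 libraries against 2 the shares were not tested.

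**Figure D2:**
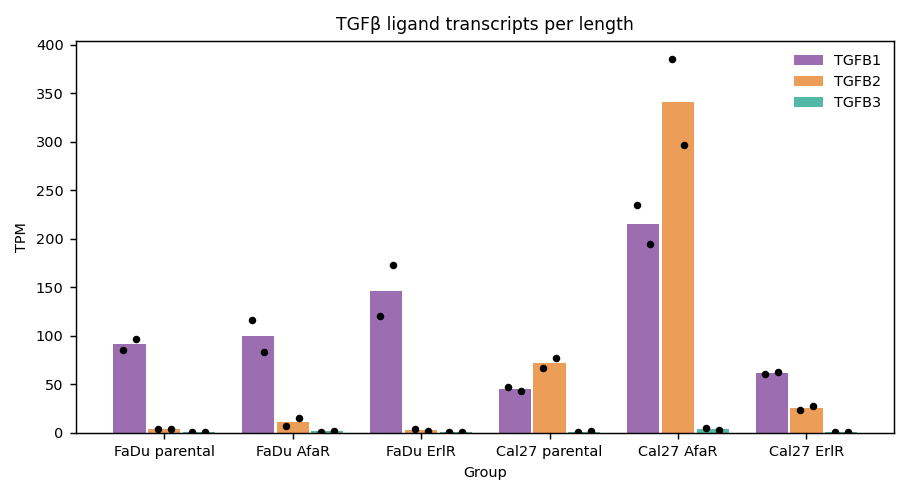
TPM of the 3 TGFβ ligand genes in each group, with bars at the mean of 2 libraries starting at 0 and a point for each library. TGFB1 is the taller bar in every FaDu group and in Cal27 ErlR, and TGFB2 in Cal27 parental and Cal27 AfaR.

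Of the receptors, TGFBR2 rose in 3 derivatives, TGFBR1 in 2 and TGFBR3 in 1. TGFBR2 (ENSG00000163513, chr3:30606502-30694142, plus strand), the type II kinase that binds ligand, measured 49.4 and 52.3 CPM in parental, 85.0 and 88.5 CPM in AfaR and 59.6 and 67.3 CPM in ErlR libraries of FaDu. Its Cal27 values were 55.7 and 56.1 CPM in parental, 168 and 163 CPM in AfaR and 112 and 89.5 CPM in ErlR libraries. Every resistant library lay above both parental libraries of its line. TGFBR2 rose by 0.75 (SE 0.115, adjusted p = 0.00556) in FaDu AfaR, by 1.56 (SE 0.142, adjusted p = 5.04e-05) in Cal27 AfaR and by 0.83 (SE 0.14, adjusted p = 0.00297) in Cal27 ErlR. The FaDu AfaR rise missed the threshold without FaDu parental replicate 1 (0.70, adjusted p = 0.0709), and the FaDu ErlR difference was 0.31 (95% interval 0.05 to 0.57, adjusted p = 0.167).

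TGFBR1 (ENSG00000106799, chr9:99104038-99154192, plus strand), the type I kinase that phosphorylates SMAD2 and SMAD3, rose in both AfaR derivatives. It measured 23.0 and 20.4 CPM in parental, 36.9 and 32.5 CPM in AfaR and 19.2 and 23.9 CPM in ErlR libraries of FaDu. In Cal27 it measured 32.8 and 34.3 CPM in parental, 128 and 99.7 CPM in AfaR and 46.3 and 36.7 CPM in ErlR libraries. The rise was 1.77 (SE 0.172, adjusted p = 7.64e-05) in Cal27 AfaR and 0.66 (SE 0.156, adjusted p = 0.0232) in FaDu AfaR. Leaving out FaDu parental replicate 1 (0.74), FaDu parental replicate 2 (0.57), FaDu AfaR replicate 1 (0.56) or FaDu AfaR replicate 2 (0.75) each raised the adjusted p of the FaDu AfaR value above the threshold, to values between 0.0549 and 0.141. Differences in the ErlR derivatives were −0.02 in FaDu (95% interval −0.38 to 0.33) and 0.28 in Cal27 (adjusted p = 0.247).

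TGFBR3 (ENSG00000069702, chr1:91680343-91906335, minus strand), the betaglycan co-receptor without a kinase, showed the largest fold change of the 10. It held 2 and 1 counts in the Cal27 parental libraries, 223 and 145 in Cal27 AfaR and 5 and 4 in Cal27 ErlR. Scaled to library size with TMM factors, the ratio of Cal27 AfaR to parental counts was 118 (95% exact interval 40 to 573, counting error only). The ErlR ratio was 3.21 (0.802 to 18.5). The fitted change in Cal27 AfaR was 6.76 (SE 0.499, adjusted p = 1.61e-05), a value that depends on the prior count because the parental libraries were near 0. In FaDu the gene ran from 2.91 and 3.01 CPM in parental to 2.13 and 1.81 CPM in AfaR and 1.41 and 1.24 CPM in ErlR libraries, both derivatives lying below the parental libraries. Neither FaDu difference passed (−0.61, adjusted p = 0.2 in AfaR and −1.17, adjusted p = 0.0849 in ErlR), though without the filter on low counts the ErlR value did (−1.19, adjusted p = 0.0475). Even in Cal27 AfaR the TGFBR3 level, 4.89 ± 1.55 TPM, was far under that of TGFBR2, 145 ± 13.3 TPM, and TGFBR1, 69.1 ± 17.0 TPM.

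SMAD3 (ENSG00000166949, chr15:67063763-67195195, plus strand), the receptor-activated SMAD that binds DNA, changed little in comparison. It measured 207 and 170 CPM in parental, 194 and 225 CPM in AfaR and 151 and 225 CPM in ErlR libraries of FaDu, all groups overlapping. In Cal27 it measured 255 and 316 CPM in parental, 435 and 419 CPM in AfaR and 195 and 205 CPM in ErlR libraries, with no overlap. It rose by 0.58 (SE 0.141, adjusted p = 0.0102) in Cal27 AfaR and fell by 0.54 on the log2 scale (SE 0.141, adjusted p = 0.0202) in Cal27 ErlR. The rise missed the threshold without Cal27 parental replicate 1 (0.44, adjusted p = 0.11) or Cal27 AfaR replicate 1 (0.55, adjusted p = 0.0568), and the fall without Cal27 parental replicate 2 (−0.36, adjusted p = 0.211), Cal27 ErlR replicate 1 (−0.50, adjusted p = 0.111) or Cal27 ErlR replicate 2 (−0.55, adjusted p = 0.0631). The FaDu differences were 0.13 in AfaR (adjusted p = 0.633) and −0.02 in ErlR (95% interval −0.43 to 0.40), and the latter became 0.45 (adjusted p = 0.0472) under ERCC scaling.

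SMAD7 (ENSG00000101665, chr18:48919853-48950711, minus strand), the inhibitory SMAD, was the only one of the 10 with its highest level in Cal27 ErlR. It measured 3.26 and 1.93 CPM in Cal27 parental, 5.67 and 5.11 CPM in Cal27 AfaR and 9.20 and 8.13 CPM in Cal27 ErlR libraries. Both derivatives lay above the parental libraries, which differed from each other. SMAD7 rose by 1.71 (SE 0.304, adjusted p = 0.00363) in Cal27 ErlR and by 1.06 (SE 0.306, adjusted p = 0.0231) in Cal27 AfaR. The AfaR rise missed the threshold without Cal27 parental replicate 2 (0.73, adjusted p = 0.133), Cal27 AfaR replicate 1 (0.98, adjusted p = 0.111) or Cal27 AfaR replicate 2 (1.14, adjusted p = 0.0587). In FaDu, SMAD7 was between 1.30 and 2.38 CPM in all 6 libraries, and both derivatives overlapped the parental libraries.

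The partners of SMAD3 showed a difference between the lines. SMAD4, the common partner that carries SMAD2 and SMAD3 to DNA, was at 0.20 to 0.52 CPM in the 6 FaDu libraries and at 5.51 to 7.99 CPM in the 6 Cal27 libraries. It was too low to be tested within FaDu, and was 3.90 higher on the log2 scale (SE 0.403, adjusted p = 6e-06) in Cal27 than in FaDu parental cells. Within Cal27 its differences were 0.15 in AfaR (adjusted p = 0.681) and 0.11 in ErlR (adjusted p = 0.791). SMAD2, the other receptor-activated SMAD, measured 55.7 to 63.6 CPM across the FaDu groups and 40.6 to 70.1 CPM across Cal27, and rose in Cal27 AfaR (0.68, SE 0.127, adjusted p = 0.00283).

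Among the binding proteins of the 10 genes, LTBP2 rose in 3 derivatives and LTBP1 in 1. The family members LTBP3 and LTBP4 are outside the 10. Mean LTBP3 was 132, 214 and 177 CPM in FaDu parental, AfaR and ErlR cells, and 70.2, 67.2 and 40.4 CPM in those of Cal27. Mean LTBP4 was 5.24, 6.70 and 4.21 CPM in FaDu and 42.9, 61.8 and 30.2 CPM in Cal27, in the same order. LTBP2 (ENSG00000119681, chr14:74498170-74612378, minus strand), which binds fibrillin and, unlike LTBP1, is not known to hold latent TGFβ, measured 13.5 and 16.8 CPM in parental, 23.3 and 37.1 CPM in AfaR and 24.5 and 22.6 CPM in ErlR libraries of FaDu. In Cal27 it measured 10.1 and 19.5 CPM in parental, 86.3 and 53.4 CPM in AfaR and 43.3 and 62.2 CPM in ErlR libraries. All 8 resistant libraries lay above the parental ones of their line. It rose by 2.24 (SE 0.333, adjusted p = 0.000859) in Cal27 AfaR, by 1.81 (SE 0.331, adjusted p = 0.00428) in Cal27 ErlR and by 0.98 (SE 0.218, adjusted p = 0.0186) in FaDu AfaR. The FaDu AfaR rise missed the threshold without FaDu parental replicate 1 (0.82, adjusted p = 0.154), FaDu parental replicate 2 (1.14, adjusted p = 0.0511) or FaDu AfaR replicate 2 (0.61, adjusted p = 0.103), and the FaDu ErlR difference was 0.63 (95% interval 0.13 to 1.12, adjusted p = 0.142).

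LTBP1 (ENSG00000049323, chr2:32946972-33399509, plus strand), which links latent TGFβ to the matrix, measured 3.20 and 3.01 CPM in parental, 4.08 and 3.54 CPM in AfaR and 3.77 and 6.02 CPM in ErlR libraries of FaDu. In Cal27 it measured 7.63 and 6.77 CPM in parental, 21.3 and 17.9 CPM in AfaR and 10.1 and 12.6 CPM in ErlR libraries. As for LTBP2, each resistant library was above both parental libraries of its line. The rise passed in Cal27 AfaR (1.45 on the log2 scale, SE 0.206, adjusted p = 0.000689) under every alternative run. It did not pass in Cal27 ErlR, where the adjusted p of 0.05 fell on the threshold (0.63, SE 0.209), nor in FaDu AfaR (0.27, adjusted p = 0.563) or FaDu ErlR (0.64, adjusted p = 0.272).

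**Figure D3:**
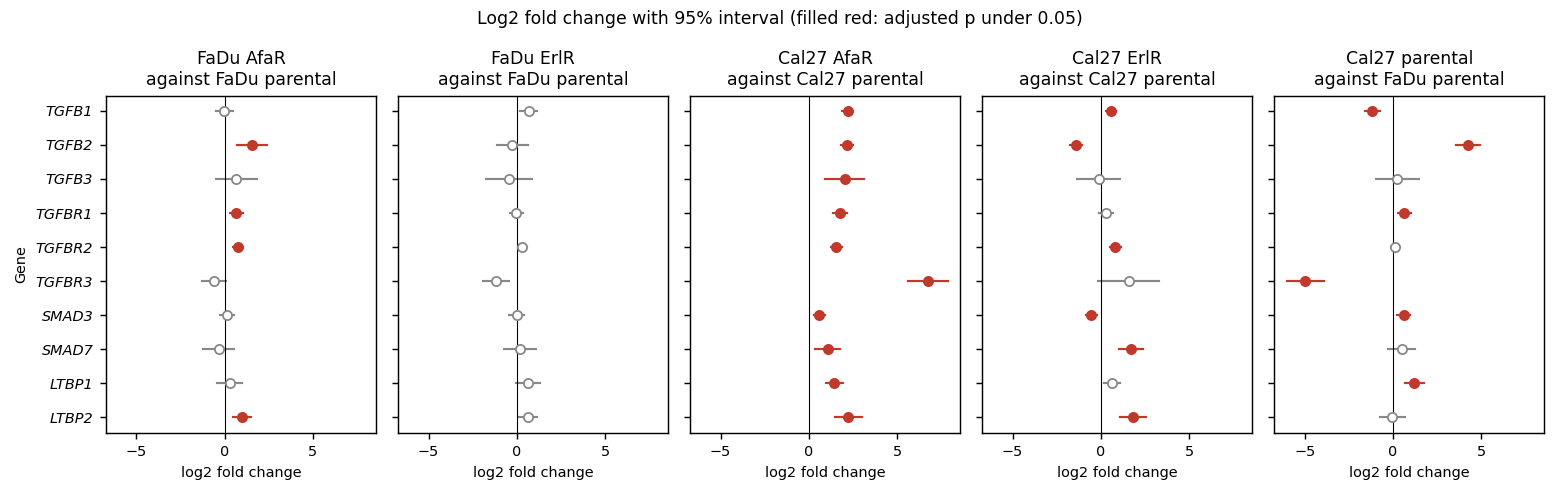
Log2 fold change with 95% interval of each of the 10 genes in the 4 comparisons of a resistant derivative with its parental cells and in the comparison of the parental lines (edgeR, filled red where the adjusted p was below 0.05). All 10 points are filled and right of 0 in Cal27 AfaR, 6 are filled in Cal27 ErlR with TGFB2 and SMAD3 left of 0, 4 of FaDu AfaR and 0 of FaDu ErlR are filled.

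The parental lines differed in 6 of the 10 genes, 4 being higher and 2 lower in Cal27, beside 28.7% of all 16240 genes called higher and 26.8% called lower. Against FaDu, parental Cal27 cells had more TGFB2 (4.26, SE 0.314, adjusted p = 3.77e-07), LTBP1 (1.21, SE 0.253, adjusted p = 0.00141), TGFBR1 (0.63, SE 0.169, adjusted p = 0.00699) and SMAD3 (0.60, SE 0.176, adjusted p = 0.0115). They had less TGFBR3 (−4.98, SE 0.488, adjusted p = 3.74e-06) and TGFB1 (−1.17, SE 0.193, adjusted p = 0.000257). The parental line with more TGFB2 was the one with 3 TGFBR3 counts in all. TGFB3, TGFBR2, SMAD7 and LTBP2 did not pass, with differences from −0.03 to 0.49. Under ERCC scaling, which moved the median of all genes from 0.04 to 0.62, TGFBR2 (0.72, adjusted p = 0.000785) and SMAD7 (1.06, adjusted p = 0.0188) were also called higher and TGFB1 remained lower (−0.59, adjusted p = 0.00761). The TGFBR1 call was lost without FaDu parental replicate 2 (0.53, adjusted p = 0.0695), and the SMAD3 call without FaDu parental replicate 2 (0.45, adjusted p = 0.117) or Cal27 parental replicate 2 (0.44, adjusted p = 0.105).

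The derivatives of a line were also set against each other. In Cal27, 8 of the 10 genes were higher in AfaR than in ErlR cells, beside 26.5% of all genes called higher and 23.2% called lower: TGFBR3 by 5.18 and TGFB2 by 3.55 (adjusted p = 2.01e-05 and 1.34e-06), TGFB3 by 2.16, TGFB1 by 1.63, TGFBR1 by 1.49, SMAD3 by 1.12, LTBP1 by 0.81 and TGFBR2 by 0.74, with adjusted p between 1.44e-05 and 0.00819 for these 6. LTBP2 (0.43, adjusted p = 0.275) and SMAD7 (−0.66, adjusted p = 0.0844) did not pass. The TGFB3 call was lost without Cal27 AfaR replicate 1 (1.55, adjusted p = 0.0766), and the LTBP1 call without Cal27 AfaR replicate 1 (0.68, adjusted p = 0.0741) or Cal27 ErlR replicate 1 (0.66, adjusted p = 0.0567). In FaDu, TGFB2 (1.79, adjusted p = 0.0163), TGFBR1 (0.68, adjusted p = 0.0219) and TGFBR2 (0.45, adjusted p = 0.0318) were higher in AfaR, beside 8.06% of all genes called higher and 7.65% called lower. The TGFBR1 and TGFBR2 calls were lost under ERCC scaling (0.39, adjusted p = 0.12, and 0.15, adjusted p = 0.497), under which TGFB1 passed as lower in AfaR (−0.98, adjusted p = 0.00194). Without FaDu AfaR replicate 2 none of the 3 passed (TGFB2 1.16, TGFBR1 0.77, TGFBR2 0.42), and without FaDu AfaR replicate 1 (TGFBR1 0.58, TGFBR2 0.47), FaDu ErlR replicate 1 (TGFBR1 0.54, TGFBR2 0.37) or FaDu ErlR replicate 2 (TGFB2 1.43, TGFBR2 0.53) some were lost.

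Whether a drug's derivative differed from its parental cells by the same amount in both lines was tested as an interaction over the 12 libraries. The AfaR difference was lower in FaDu than in Cal27 for 5 of the 10 genes, beside 8% of all genes called lower and 10.5% called higher: TGFBR3 (−7.35, SE 0.568, adjusted p = 5.38e-06), TGFB1 (−2.20, SE 0.27, adjusted p = 0.000172), LTBP1 (−1.15, SE 0.349, adjusted p = 0.037), TGFBR1 (−1.09, SE 0.235, adjusted p = 0.0069) and TGFBR2 (−0.79, SE 0.176, adjusted p = 0.00819). For TGFB2, which rose in both AfaR derivatives, the interaction was −0.60 (adjusted p = 0.341), and for LTBP2 −1.24 (adjusted p = 0.0747). The LTBP1 call was lost when any 1 of the 8 libraries was left out, with values from −1.27 to −1.03 and adjusted p from 0.0553 to 0.115, and under ERCC scaling (−1.01, adjusted p = 0.0505). For ErlR, 2 of the 10 passed, both lower in FaDu, beside 8.8% of all genes called lower and 9.8% called higher: TGFBR3 (−2.77, SE 0.763, adjusted p = 0.0251), on few counts, and SMAD7 (−1.55, SE 0.494, adjusted p = 0.0457). Both were lost under ERCC scaling (−2.31, adjusted p = 0.0559, and −1.10, adjusted p = 0.12), under which TGFB2 (1.62, adjusted p = 0.0192) and SMAD3 (0.97, adjusted p = 0.00864) passed with the higher difference in FaDu. The TGFBR3 call was lost without FaDu parental replicate 1 (−2.79), FaDu parental replicate 2 (−2.74), FaDu ErlR replicate 2 (−2.68), Cal27 parental replicate 2 (−2.38) or Cal27 ErlR replicate 1 (−2.56), and the SMAD7 call without FaDu parental replicate 1 (−1.04), FaDu ErlR replicate 1 (−1.39), FaDu ErlR replicate 2 (−1.73), Cal27 parental replicate 2 (−1.22), Cal27 ErlR replicate 1 (−1.44) or Cal27 ErlR replicate 2 (−1.64).

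The remaining pathway was followed in 4 lists of other genes. Beside the list counts below, 10.4% of all genes tested rose and 7.49% fell in FaDu AfaR, and 2.58% rose and 1.6% fell in FaDu ErlR. In Cal27, 19.5% rose and 18.2% fell in AfaR, and 12.3% rose and 15.3% fell in ErlR. The lists were not tested against these shares. Of 14 genes that store or activate latent TGFβ, 13 were tested. In FaDu AfaR 5 rose and 0 fell (median log2 fold change 0.34), led by the matrix protease MMP2 (2.87, adjusted p = 0.00316), the fibrillin gene FBN2 (1.45, adjusted p = 0.0141) and THBS1, which encodes the activator thrombospondin 1 (1.15, adjusted p = 0.00257). MMP2 and THBS1 passed without any 1 library, MMP2 with 3.505 (adjusted p = 0.00508) without FaDu parental replicate 2. FBN2 missed the threshold without FaDu parental replicate 1 (1.00, adjusted p = 0.065) or FaDu AfaR replicate 2 (1.36, adjusted p = 0.0729) and was at 2.07 (adjusted p = 0.00508) without FaDu parental replicate 2. In Cal27 AfaR 5 rose and 3 fell (median 0.00283): MMP2 (6.80, adjusted p = 2.2e-06) and the fibrillin gene FBN1 (5.59, adjusted p = 9.56e-07) were the largest rises, while ITGB6, a subunit of the integrin that frees TGFβ in epithelia, fell (−1.80, adjusted p = 0.000133). In Cal27 ErlR 1 rose and 5 fell (median −0.59), with FBN2 up (2.52, adjusted p = 5.11e-05) and the integrin subunits ITGB6 (−1.89, adjusted p = 0.000285) and ITGB8 (−1.40, adjusted p = 0.00292) down. In FaDu ErlR 0 of 13 passed (median 0.20).

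Of 8 receptor partners tested, 3 rose and 2 fell in Cal27 AfaR, 1 rose and 1 fell in FaDu AfaR, 1 rose in FaDu ErlR and 0 passed in Cal27 ErlR. The activin and BMP type I receptor ACVR1 rose in Cal27 AfaR (1.35, adjusted p = 0.000587) and in FaDu ErlR (1.07, adjusted p = 0.0224). The endocytic adaptor DAB2 rose in Cal27 AfaR (1.04, adjusted p = 0.00543) and FaDu AfaR (0.97, adjusted p = 0.0274), while FKBP1A, which encodes the immunophilin that holds type I receptors inactive, fell in Cal27 AfaR (−0.74, adjusted p = 0.002) and STRAP in FaDu AfaR (−0.44, adjusted p = 0.044). The DAB2 and STRAP calls in FaDu AfaR were lost without FaDu parental replicate 1 (1.31 and −0.41), FaDu parental replicate 2 (0.69 and −0.49) or FaDu AfaR replicate 2 (0.87 and −0.27). The ACVR1 call in FaDu ErlR was lost without FaDu parental replicate 1 (1.28), FaDu parental replicate 2 (0.88) or FaDu ErlR replicate 2 (0.97), and the DAB2 call in Cal27 AfaR without Cal27 AfaR replicate 1 (0.84). The adjusted p of these values lay between 0.0563 and 0.237.

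Among other SMADs and their regulators, 4 rose and 3 fell of 15 in Cal27 AfaR, with the corepressor TGIF1 up (1.09, adjusted p = 0.00138) and its relative TGIF2 down (−0.93, adjusted p = 0.00116). In Cal27 ErlR 2 of 15 rose, the ubiquitin ligases TRIM33 (1.68, adjusted p = 6.4e-05) and WWP1 (0.40, adjusted p = 0.0473). In FaDu AfaR 1 of 14 rose, the ubiquitin ligase NEDD4L (0.80, adjusted p = 0.0115), and in FaDu ErlR 0 of 14 passed. The WWP1 call was lost without any 1 of its 4 libraries (0.33 to 0.50, adjusted p from 0.0564 to 0.221), and the NEDD4L call without FaDu parental replicate 1 (0.79), FaDu parental replicate 2 (0.80) or FaDu AfaR replicate 2 (0.73), with adjusted p from 0.0614 to 0.101.

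The 21 genes known to be induced by TGFβ moved in both directions in each derivative. Of them 4 rose and 3 fell in FaDu AfaR (median 0.27), 5 rose and 1 fell in FaDu ErlR (median 0.60), 9 rose and 3 fell in Cal27 AfaR (median 0.32) and 6 rose and 3 fell in Cal27 ErlR (median 0.12). ANGPTL4, a secreted lipase inhibitor, measured 0.93 and 0.70 CPM in Cal27 parental, 4.00 and 12.8 CPM in Cal27 AfaR and 61.8 and 10.0 CPM in Cal27 ErlR libraries. It measured 2.52 and 1.40 CPM in FaDu parental against 5.31 and 24.8 CPM in FaDu ErlR libraries. Each of these derivatives lay above its parental cells, with libraries far from each other. ANGPTL4 rose in Cal27 ErlR (5.42, adjusted p = 0.00335), with 3.59 without Cal27 ErlR replicate 1 and 6.24 without Cal27 ErlR replicate 2, both passing. It also rose in Cal27 AfaR (3.34, adjusted p = 0.023) and FaDu ErlR (2.92, adjusted p = 0.0412), with 3.96 without Cal27 AfaR replicate 1 and 3.64 without FaDu ErlR replicate 1, both passing. The Cal27 AfaR call was lost without Cal27 parental replicate 2 (3.15) or Cal27 AfaR replicate 2 (2.30), and the FaDu ErlR call without FaDu parental replicate 1 (3.40), FaDu parental replicate 2 (2.56) or FaDu ErlR replicate 2 (1.42), with adjusted p between 0.053 and 0.209. The cell cycle inhibitor CDKN1A rose in FaDu ErlR (1.73, adjusted p = 0.0271), and the fibronectin receptor subunit ITGA5 in Cal27 AfaR (1.99, adjusted p = 3.7e-05). The scaffold gene NEDD9 rose in FaDu AfaR (1.99, adjusted p = 0.0361) and fell in Cal27 ErlR (−2.33, adjusted p = 0.00279). In FaDu AfaR the basement membrane collagen COL4A1 rose (1.46, adjusted p = 0.00257) and the transcription factor JUNB fell (−1.30, adjusted p = 0.0128). The CDKN1A call was lost without FaDu parental replicate 1 (1.84), FaDu parental replicate 2 (1.63) or FaDu ErlR replicate 2 (0.99). The NEDD9 call in FaDu AfaR was lost without FaDu parental replicate 1 (1.66), FaDu parental replicate 2 (2.40) or FaDu AfaR replicate 2 (1.00), and the JUNB call without FaDu AfaR replicate 2 (−1.45). The adjusted p of these values lay between 0.0514 and 0.267, and in Cal27 ErlR NEDD9 was at −1.62 (adjusted p = 0.00815) without Cal27 parental replicate 2. Over the 4 lists together, 15 genes passed in FaDu AfaR cells and 7 in the ErlR cells, counts that ranged from 5 to 13 and from 0 to 13 without 1 library: 5 and 0 without FaDu parental replicate 1, 6 and 2 without FaDu parental replicate 2, 6 without FaDu AfaR replicate 2, 13 without FaDu ErlR replicate 1 and 2 without FaDu ErlR replicate 2. ERCC scaling gave 17 higher and 1 lower in FaDu AfaR, against 11 and 4, and 36 higher and 0 lower in FaDu ErlR, against 6 and 1. In Cal27 32 genes passed in AfaR (21 higher, 11 lower) and 17 in ErlR (9 higher, 8 lower). These totals stand beside the shares of all genes given with the first list and were not tested against them.

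**Figure D4:**
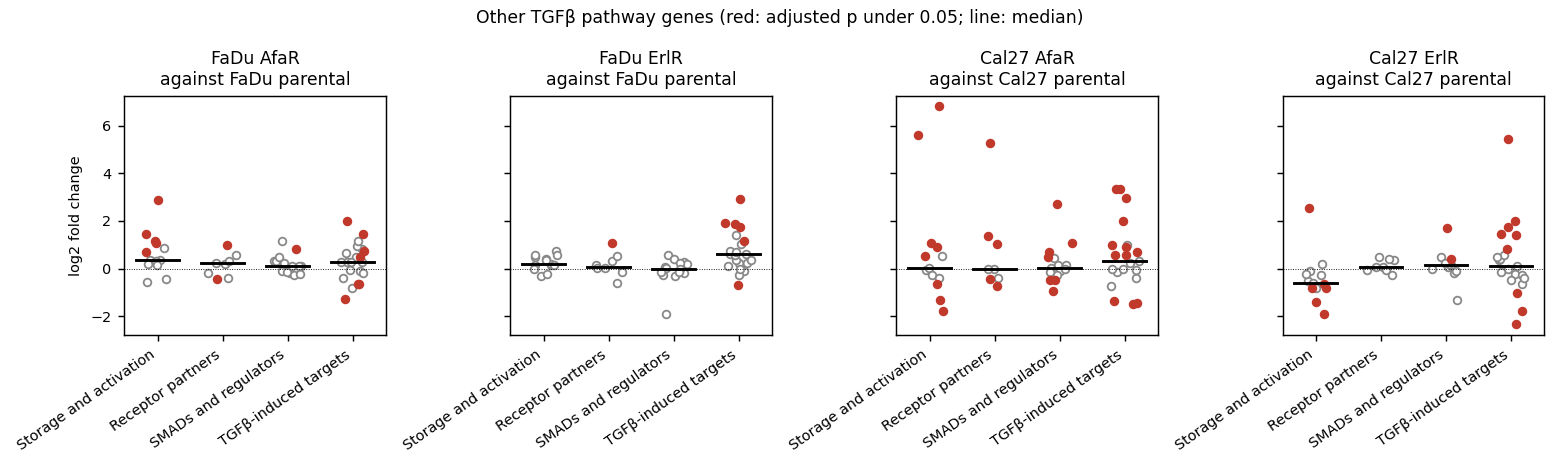
Log2 fold change of each tested gene of the 4 pathway lists in each resistant derivative against its parental cells (edgeR, red where the adjusted p was below 0.05), with a line at the median of each list. Red points lie on both sides of 0 in all 4 lists in Cal27 AfaR, and the medians stay between −0.59 and 0.60.

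Some of these genes share exon bases with other genes or lie among genes that also rose. The counting strand is not given in the sources used here, so reads over exons shared with an antisense gene cannot be assigned: TGFB1 shares 215 bases (6.64% of its exon length) with HNRNPUL1, and TGFB3, SMAD3 and LTBP2 share 2.0% to 3.32% with antisense genes that held 0 to 109 counts over all libraries. HNRNPUL1 held 110932 counts over all libraries, against 20065 for TGFB1. HNRNPUL1 itself changed by 0.18 (adjusted p = 0.303) in Cal27 AfaR and 0.26 (adjusted p = 0.156) in Cal27 ErlR, where TGFB1 rose. It fell in FaDu AfaR (−0.37, adjusted p = 0.0379) and changed by −0.13 (adjusted p = 0.52) in FaDu ErlR. TGFB2 shares 26.6% of its exon length with TGFB2-OT1 on the same strand, a gene listed with 0 counts. Of the 20 tested genes nearest to TGFBR1, 10 also rose in FaDu AfaR (median 0.56), beside 10.4% of all genes, and 8 had a difference as large as that of TGFBR1. Of the 20 nearest to TGFBR2, 10 rose in Cal27 ErlR (median 0.75), beside 12.3% of all genes, and 8 had a difference as large as that of TGFBR2. In Cal27 AfaR 8 of the 20 rose (median 0.45), beside 19.5% of all genes. Near TGFBR3, 8 of 20 rose in Cal27 ErlR, and near LTBP2, 6 of 20 in Cal27 AfaR. The part of these surroundings in the values of the TGFβ genes was not tested. In Cal27 AfaR the medians around the 9 genes other than TGFBR2 lay between −0.21 and 0.17.

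The 3 genes with the widest range of group means of log2(CPM + 0.5) were TGFB2 (6.54), TGFBR3 (4.17) and LTBP1 (2.47). The added 0.5 CPM narrows the range of a gene near 0, such as TGFBR3 in Cal27 parental cells. For each, the 3 genes with the most similar profile over the 12 libraries were found by the root mean square difference of these log2 values, centred. Only genes with a symbol and a mean of at least 5 CPM over the 12 libraries were searched, so genes of lower level could not be found. TGFB2 was closest to TGFB2-AS1 (0.348, r = 0.989), a gene on the opposite strand beside it, then to C1S (0.411, r = 0.988) and C1R (0.542, r = 0.978). TGFB2-AS1 rose in FaDu AfaR (2.92, adjusted p = 0.0458) and Cal27 AfaR (2.10, adjusted p = 2.71e-05) and fell in Cal27 ErlR (−1.72, adjusted p = 0.000447), the 3 comparisons of a derivative with its parental cells in which TGFB2 passed. TGFBR3 was closest to SULF2 (0.351, r = 0.976), DPYSL2 (0.392, r = 0.969) and PLXND1 (0.399, r = 0.966), and LTBP1 to PCDHGC3 (0.272, r = 0.954), TMX4 (0.277, r = 0.965) and DPY19L1 (0.286, r = 0.947). These correlations are over 12 libraries that share 6 group levels, and describe likeness only.

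The 250 bases before each annotated start were read for all 10 genes, 27 windows in all, because the 10 rose together in Cal27 AfaR. Windows come from RefSeq on GRCh38.p14 and are given on the strand of the gene; both strands were searched. The SMAD-binding palindrome GTCTAGAC and the CAGA box AGCCAGACA, at which SMAD3 and SMAD4 bind DNA, matched none of the 27 windows, beside 0.182% and 0.231% of 35116 windows of all genes. The AP-1 letters TGANTCA were found in 1 of the 27 windows (3.7%; one of SMAD3, TGAGTCA starting 56 bases before the start), beside 6.57% of all windows. The CAGGTG E-box of SNAI and ZEB factors was in 5 of the 27 (18.5%; TGFBR1, SMAD3 and SMAD7), beside 17.5%, and the GC box GGGCGG of SP factors in 9 (33.3%; 6 genes), beside 42.6%. Windows of a gene can overlap, and 8 of the 27 belong to TGFBR1. The windows of 3 genes are shown, with GC boxes in capitals. They are TGFB2 and TGFBR3, the genes of widest range of group means, and the ligand TGFB1 beside TGFB2. The window chr19:41353923-41354172 (minus strand) for TGFB1 holds 6 in 76.8% G and C, chr1:218345086-218345335 (plus strand) for TGFB2 holds no match to any of the 5 motifs in 50.4% G and C, and chr1:91886152-91886401 (minus strand) for TGFBR3 holds 2 in 73.6% G and C.
TGFB1: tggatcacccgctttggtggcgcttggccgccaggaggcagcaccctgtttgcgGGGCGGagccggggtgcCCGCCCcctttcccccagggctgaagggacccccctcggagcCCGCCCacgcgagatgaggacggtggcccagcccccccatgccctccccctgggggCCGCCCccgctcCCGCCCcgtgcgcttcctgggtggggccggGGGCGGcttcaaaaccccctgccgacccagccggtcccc
TGFB2: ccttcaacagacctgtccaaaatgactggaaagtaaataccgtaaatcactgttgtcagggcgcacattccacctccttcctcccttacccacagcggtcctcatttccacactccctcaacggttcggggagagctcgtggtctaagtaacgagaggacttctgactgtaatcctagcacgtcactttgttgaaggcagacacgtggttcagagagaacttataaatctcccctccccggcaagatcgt
TGFBR3: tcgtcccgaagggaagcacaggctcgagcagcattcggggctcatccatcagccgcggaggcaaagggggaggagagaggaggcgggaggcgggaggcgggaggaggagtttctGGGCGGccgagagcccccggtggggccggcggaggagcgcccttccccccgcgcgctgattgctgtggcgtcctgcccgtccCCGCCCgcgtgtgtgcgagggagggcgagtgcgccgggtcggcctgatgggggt
A match or its absence in 250 bases describes the letters only.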

How the data were processed

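Poly(A) RNA of 2 biological replicates of each of 6 cell models was sequenced on HiSeq as paired reads. The deposited values used here are raw counts of reads per gene, made by the authors from reads trimmed with Trimmomatic 0.36, aligned to GRCh38 with STAR 2.5.2b and counted with featureCounts of Subread 1.5.2, per the labels. Tables of counts divided by size factors, also deposited, were not used here. 0 count columns were left without a sample.

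In R 4.3.3, edgeR 4.0.16 (TMM, filterByExpr, quasi-likelihood test, Benjamini-Hochberg adjustment over all genes tested) was fitted to the 6 libraries of a line (15092 genes in FaDu and 15269 in Cal27, 3 residual degrees of freedom each, biological coefficients of variation 14.5% and 15.3%), and to all 12 (16240 genes, 6 degrees of freedom) for comparisons across lines. The study's own test, DESeq2 (1.42.0), was an alternative, beside RLE and ERCC scaling, filters on low counts, a log2 fold change over 1, a replicate block, other sets of libraries and leaving out each library, which for the named list genes was chosen after seeing the data. The scripts were tested on simulated data. TPM used summed exon lengths. P-values set a difference against the spread between the 2 libraries of a group, pooled over the groups of the fit and moderated across genes. Intervals on counts cover counting error only.

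The 10 genes and the gene lists were chosen with earlier results of these data known. Named genes were the 10, SMAD2, SMAD4, 1 target gene that is not reported here, and in each list and comparison up to 3 passing genes of largest fold change with a mean of at least 5 CPM; gene names matched for 56948 of 58051 identifiers.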

Additional observations from a re-analysis of the deposited data

Results flagged for a closer look

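A direct test, the interaction of line and derivative, was run (edgeR, FaDu minus Cal27, log2 scale, 2 libraries per group). For some genes the difference of a derivative from its parental cells was unlike in FaDu and Cal27. For AfaR this held for TGFB1 (−2.20, adjusted p = 0.000172), TGFBR1 (−1.09, adjusted p = 0.0069), TGFBR2 (−0.79, adjusted p = 0.00819), TGFBR3 (−7.35, adjusted p = 5.38e-06) and LTBP1 (−1.15, adjusted p = 0.037), each with the higher difference from parental cells in Cal27. For ErlR it held for TGFBR3 (−2.77, adjusted p = 0.0251), lower in both FaDu ErlR libraries than in FaDu parental cells and higher in both Cal27 ErlR libraries than in theirs on 9 against 3 counts, and for SMAD7 (−1.55, adjusted p = 0.0457), which rose in Cal27 ErlR. Under ERCC scaling the AfaR call of LTBP1 and the ErlR calls of TGFBR3 and SMAD7 were lost (edgeR adjusted p = 0.0505, 0.0559 and 0.12). The AfaR call of TGFBR3 remained (−7.22, edgeR adjusted p = 1.94e-06). As given above, the lost calls also depended on single libraries. Each drug gave 1 derivative per line, so these differences describe those derivatives, and line and growth medium cannot be told apart in them.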

How the results depend on the processing

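Over all comparisons, 985 recomputed log2 fold changes of the 10 genes stayed on their side of the threshold, 64 no longer passed, 37 newly passed and 1 reversed; in 41 of the 985 the sign differed with neither value passing. The reversed value was SMAD3 in FaDu ErlR, 0.45 under ERCC scaling. The counts of the 10 genes in Cal27 AfaR, Cal27 AfaR against ErlR, the parental lines and the AfaR interaction stayed within 1.5 times of the values given under all alternatives.

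Requiring a log2 fold change over 1 left 1 of 4 genes in FaDu AfaR, 3 of 6 in Cal27 ErlR, 1 of 3 in FaDu AfaR against ErlR, 7 of 15 pathway list genes in FaDu AfaR and 17 of 32 in Cal27 AfaR. In FaDu ErlR the 0 calls became 1 with DESeq2, 5 with ERCC scaling and 3 without a filter, and the 7 list genes became 36 with ERCC scaling and 17 without a filter, which also gave 24 list genes in FaDu AfaR and 4 genes instead of 2 in the ErlR interaction; there a minimum of 10 counts left 1. ERCC scaling turned the split of calls from 3 higher and 0 lower to 1 and 1 in FaDu AfaR against ErlR, and from 0 and 2 to 2 and 0 in the ErlR interaction. The cause was not tested.

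Leaving out 1 library, the remaining library of its group being assumed to vary like the others, gave 0 to 3 genes in FaDu AfaR, 0 to 1 in FaDu ErlR, 0 to 2 in FaDu AfaR against ErlR and 0 to 2 in the ErlR interaction, and 5 to 13 and 0 to 13 list genes in FaDu AfaR and ErlR. With the replicate block the counts of the 10 were as without it (FaDu AfaR 4 and ErlR 0, Cal27 AfaR 10 and ErlR 6), and list genes numbered 14, 6, 30 and 15. No source used here says whether a replicate number marks a shared day or culture. Deviations of same-numbered libraries from their group means correlated by −0.318 to 0.326 between groups, which cannot decide this.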
